A study of Mus musculus with 10 samples.

Results

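Among the genes that laboratories use as internal references, 9 were followed across the libraries of sorted hepatic stellate cells (HSCs): *Hprt*, *Actb*, *Actg1*, *Tbp*, *Ppia*, *Ywhaz*, *Eef1a1*, *Eef2* and *Polr2a*. They were found by gene symbol in the table of normalized counts, where each matched 1 entry among 25233 entries with a symbol, and all 9 passed the filter on low values that left 14630 genes to test. The question was which of them kept one level across the 10 libraries.

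A reference gene is a gene whose RNA is taken to be constant, so that the RNA of other genes can be expressed relative to it. The genes used for this serve needs that every cell has: the actins build the cytoskeleton, the elongation factors carry translation, TBP and RNA polymerase II carry transcription, and HPRT recycles purine bases. Their RNA is nevertheless regulated, actin by the serum response pathway and the translation factors by growth signals, and HSCs rebuild their cytoskeleton and secretion when the liver is injured.

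The 10 libraries were 5 of hypertrophied HSCs (hypHSCs) and 5 of quiescent HSCs (qHSCs), each from a sorted preparation of C57BL/6J mouse liver. The hypHSC donors were males given the CDAHFD, a high-fat diet low in choline that causes steatohepatitis, for 13 weeks (hypHSC 1 and 2, aged 19 weeks) or 12 weeks (hypHSC 3, 4 and 5, aged 18 weeks). The qHSC donors were males kept on standard diet and were older, at 36 weeks (qHSC 1, 2 and 5) or 34 weeks (qHSC 3 and 4). The hypHSCs were gated on green and the qHSCs on blue fluorescence after digestion under different conditions, so diet, age, digestion and gate cannot be told apart. The mouse behind each library is not given in the sources used here, so p-values measure the spread between these preparations.

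The libraries held 30534719 to 47317028 reads on genes with a symbol, and 0.606% to 1.37% of these reads in a library came from the 9 genes. Entries without a symbol held 10.8% to 29.1% of the reads on all entries in hypHSC libraries and 8.98% to 10.2% in qHSC libraries. The labelled cell type was checked on its markers. All 8 stellate markers were lower in hypHSCs, with a summed level of 21694 to 48906 normalized counts against 821062 to 1220250 in qHSCs, and 8 of 10 macrophage markers were higher, with a sum of 989464 to 1379390 against 4599 to 119625. Of the biliary markers 4 of 4 tested were higher and nearly all of their sum came from *Spp1*, while 0 of 7 hepatocyte markers and 3 of 6 tested endothelial markers were called, 1 higher and 2 lower. Beside these markers, 39.5% of all genes tested were called. None of the stellate or macrophage markers was at 0 in any library. Mitochondrial entries held 2.21% to 12.8% of reads in hypHSC libraries, against 1.25% to 1.61% in qHSC libraries. The part of these differences in the results below was not tested, and in bulk RNA fewer cells of a type and less RNA per cell cannot be told apart.

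A gene was called where its log2 fold change (hypHSC over qHSC, on log2 of the normalized count plus 1) was at least 1 in size with an adjusted p of at most 0.05 in limma, the rule of fold and adjusted p that the study applied to its own test. It was taken as held within 2-fold where the 95% confidence interval of that fold change lay between -1 and 1. Of the 9 genes, *Hprt* and *Actg1* were called, both higher in hypHSCs. Over all genes tested 39.5% were called, and 17.8% were called higher. *Tbp*, *Ywhaz*, *Eef1a1* and *Eef2* were held within 2-fold, 4 of the 9 beside 17.4% of all genes tested. *Ppia* rose 1.86-fold, under the limit for a call, and *Actb* and *Polr2a* varied too much among libraries of one group for either statement.

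**Figure D1:**
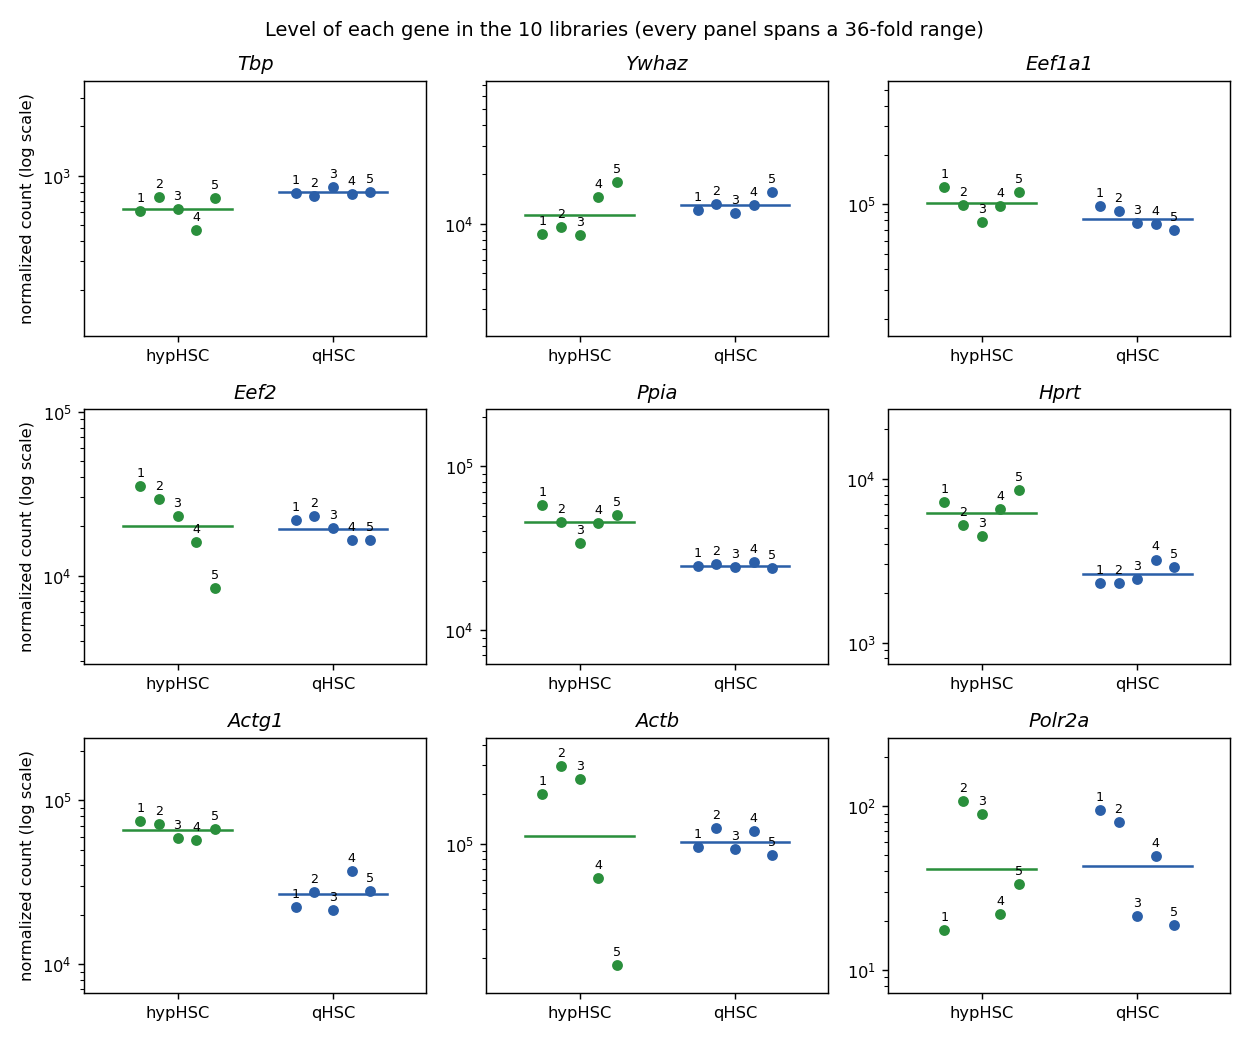
Normalized count (vertical axis, log scale, the same 36-fold span in every panel) of the 9 genes in 5 hypHSC and 5 qHSC libraries. Each point is a library with its number, and each line is the geometric mean of the group. *Tbp* and *Eef1a1* stayed within a 2-fold range over the 10 libraries, *Hprt* and *Actg1* were separated by group, and *Actb* spread 16.3-fold within hypHSCs.

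**Figure D2:**
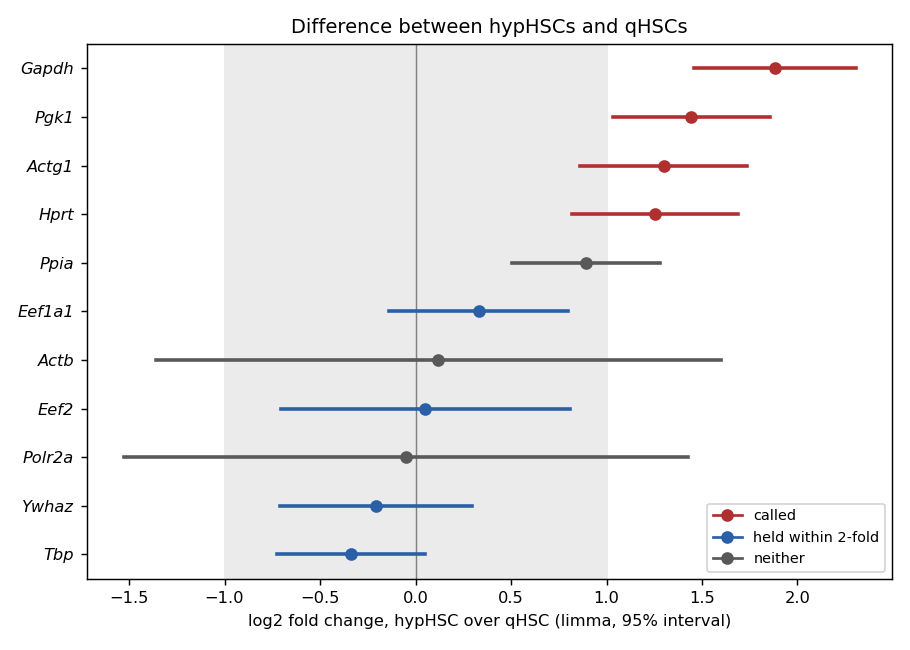
Log2 fold change of hypHSCs over qHSCs (horizontal axis) with its 95% interval from limma, for the 9 genes and for *Pgk1* and *Gapdh*. The grey band marks a change of less than 2-fold. The intervals of *Tbp*, *Ywhaz*, *Eef1a1* and *Eef2* lie inside the band, and those of *Actb* and *Polr2a* cross both of its edges.

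How far reads could be shared with other loci differed among the 9 genes. The canonical transcript of each gene in the GENCODE annotation of GRCm39 (the mm39 build of the files) was cut into all stretches of 59 bases, the read length, and each stretch was searched in the genome. No stretch of *Hprt* or *Polr2a* occurred elsewhere, and 0.887% did for *Tbp*, 7.26% for *Eef2* and 9.45% for *Actb*. Processed pseudogenes raised the share to 51.8% for *Ywhaz*, 61.6% for *Ppia*, 66.2% for *Eef1a1* and 85.0% for *Actg1*. How multiply mapped reads were counted is not given in the sources used here, so the levels of these 4 genes may be too low or may hold reads of copies, and their values are uncertain to that extent.

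The pair of cytoplasmic actins themselves were easily told apart at this read length. Their coding sequences were both 1128 bases long with the stop codon and equal at 1000 of them (88.7%), yet only 5 stretches of 59 bases occurred in both transcripts. The first 60 coding bases are shown because the results below set one actin against the other, with the 9 bases that differ in capitals.
Actb: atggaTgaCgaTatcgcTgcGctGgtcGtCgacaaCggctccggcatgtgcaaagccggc
Actg1: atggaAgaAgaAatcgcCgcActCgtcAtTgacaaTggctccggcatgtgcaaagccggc

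*Actb* (chr5:142888871-142892509), which encodes β-actin, was the least steady of the 9 genes. It stood at 201672, 296496, 249100, 61939 and 18213 normalized counts in hypHSC 1 to 5 and at 95473, 124051, 92957, 118583 and 85084 in qHSC 1 to 5. The hypHSC libraries lay on both sides of the qHSCs: hypHSC 1, 2 and 3 were above every qHSC library, and hypHSC 4 and 5 were below every one of them. The highest hypHSC library was 16.3 times the lowest, against 1.46 times in qHSCs. The log2 fold change was 0.12 (SE 0.67, 95% interval -1.36 to 1.598, adjusted p = 0.896 in limma), which allows a change of 2-fold in either direction. It was 0.77 (SE 0.41) without hypHSC 5 and -0.24 without hypHSC 2, and edgeR and DESeq2 on the recovered reads gave 0.71. The libraries held 12042 to 299548 reads of *Actb*.

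Other measures also set hypHSC 4 and 5 apart, in both directions. Among the macrophage markers, *Csf1r* stood at 14052, 24497, 24120, 5275 and 1833 normalized counts in hypHSC 1 to 5, and *C1qa* at 51667, 42243, 38304, 17653 and 2231. *Cd68* ran the other way, at 115258, 160725, 133590, 196974 and 179811, and *Lyz2*, the most abundant of them, ranged only from 740305 to 940344. The summed hepatocyte markers were highest in hypHSC 4 and 5, at 46259 and 94945 normalized counts against 8941 to 24115 in hypHSC 1 to 3. hypHSC 5 also had fewer counts on genes of high GC content. At the exon GC content of *Actb* (52.9%), the trend fitted across genes stood at -0.88 on the log2 scale there. It was at -0.15 in hypHSC 4 and at 0.21 to 0.30 in hypHSC 1 to 3. With the trend of each library removed, an alternative added after the data had been seen, the hypHSC libraries of *Actb* still spread 7.2-fold, and the log2 fold change was 0.41 (SE 0.51). The part of macrophage or hepatocyte RNA in this spread was not tested.

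*Actg1* (chr11:120236514-120239325), which encodes γ-actin, behaved otherwise. Its levels were 75013, 71874, 58679, 57013 and 66944 normalized counts in hypHSC 1 to 5 and 22185, 27412, 21359, 36937 and 27902 in qHSC 1 to 5. The lowest hypHSC library was above the highest qHSC library, and hypHSC 4 and 5 were not set apart as they were for *Actb*. The change was 2.46-fold (log2 1.30, SE 0.20, adjusted p = 0.000279 in limma), and it stayed called without any one library. Within a library, *Actb* exceeded *Actg1* 2.69-, 4.13-, 4.25- and 1.09-fold in hypHSC 1 to 4 and was at 0.272 of it in hypHSC 5, against 3.05- to 4.53-fold in qHSCs. The difference of the ratio between the groups did not pass an exact two-sided permutation test (difference in log2 -1.18, p = 0.135 and 0.270 after adjustment over the 36 pairs of the 9 genes), since hypHSC 2 and 3 lay among the qHSCs.

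Of the other actins, *Acta2*, the smooth muscle actin used as a marker of activated HSCs, was at 847 ± 384 normalized counts in hypHSCs against 407 ± 489 in qHSCs (SD, n = 5 each) and was not called (log2 1.72, SE 0.69, adjusted p = 0.0592 in limma). *Actg1* was the only one of the 4 actins tested to be called, beside 39.5% of all genes tested. *Actc1* and *Actg2* did not pass the filter on low values.

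*Hprt* (chrX:52076955-52110537), which encodes the enzyme that recycles hypoxanthine and guanine into nucleotides, rose by a similar factor. Its levels were 7248, 5218, 4469, 6490 and 8477 normalized counts in hypHSC 1 to 5 and 2316, 2294, 2449, 3212 and 2876 in qHSC 1 to 5. Every hypHSC library was above every qHSC library. The change was 2.39-fold (log2 1.25, SE 0.20, 95% interval 0.82 to 1.69, adjusted p = 0.000342 in limma), and it stayed called without any one library, between 1.14 without hypHSC 5 and 1.37 without hypHSC 3. Both *Hprt* and *Actg1* fell just under the 2-fold limit, at log2 0.90 and 0.94, where the libraries were scaled to the same total in place of the deposited scaling. Under that scaling the median of all genes tested moved from -0.20 to -0.54 and the share of calls that were higher from 45.0% to 32.4%. Relative to this median, *Hprt* was at 1.44 and *Actg1* at 1.49, against 1.45 and 1.496 with the deposited scaling. Rescaling shifts all genes by nearly the same amount, so this likeness was fixed in advance and does not bear on the calls.

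*Hprt* was one of 8 genes called among 15 of purine salvage and nucleotide recycling, of which 7 were higher, beside 39.5% of all genes tested called and 17.8% called higher. *Aprt*, which recycles adenine, stood at 15973 ± 1795 normalized counts in hypHSCs against 2365 ± 260 in qHSCs (SD, n = 5 each), a log2 change of 2.75 (SE 0.14, adjusted p = 1.6e-07 in limma). *Dck* (deoxycytidine kinase, log2 3.12), *Ampd3* (AMP deaminase, 2.69), *Gmpr* (GMP reductase, 1.52) and *Nt5c2* (a cytosolic nucleotidase, 1.05) also rose, and *Gda*, guanine deaminase, was at 177 ± 66.3 normalized counts against 5.54 ± 7.09. *Nt5e*, the ecto-nucleotidase CD73, was the only one called lower, at 5.42 ± 2.61 against 4402 ± 1843. The median of the 15 log2 fold changes was 0.92, beside -0.20 for all genes tested.

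*Ppia* (chr11:6365777-6369817), which encodes cyclophilin A, a prolyl isomerase of the cytosol, was higher in hypHSCs by less than 2-fold. It stood at 57649, 45999, 33886, 45260 and 50753 normalized counts in hypHSC 1 to 5 and at 24535, 25296, 24433, 25963 and 23782 in qHSC 1 to 5. The qHSC libraries lay within 1.09-fold of each other, a smaller SD of log2 values than that of all but 0.643% of the genes tested, and every hypHSC library was above them. The change was 1.86-fold (log2 0.89, SE 0.18, 95% interval 0.51 to 1.28, adjusted p = 0.00155 in limma). It missed the limit of 2-fold narrowly and was called without hypHSC 3, with the same upper quartile and with the GC trend removed, at log2 1.0, 1.0 and 1.07. With the libraries scaled to the same total, *Ppia* was at log2 0.54 (95% interval 0.21 to 0.87) and counted as held within 2-fold.

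Among 15 cyclophilins 2 were called, beside 39.5% of all genes tested. *Ppif*, the mitochondrial cyclophilin, was called higher (log2 1.47, SE 0.50) and *Ppic* lower (-1.54, SE 0.24), and the median of the 15 was -0.04. *Ppib*, the cyclophilin of the secretory pathway, stood at 11738 ± 3003 normalized counts in hypHSCs against 17321 ± 909 in qHSCs (SD, n = 5 each), with a log2 change of -0.59 (SE 0.18, 95% interval -0.99 to -0.20), inside 2-fold and opposite in sign to *Ppia*.

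*Tbp* (chr17:15720149-15749088), which encodes the TATA-binding protein at the core of TFIID, had the smallest SD of log2 values of the 9 genes. Its levels were 612, 742, 625, 467 and 734 normalized counts in hypHSC 1 to 5 and 786, 751, 854, 779 and 799 in qHSC 1 to 5. The highest hypHSC library was just under the lowest qHSC library, so the groups did not overlap, yet the highest of the 10 was only 1.83 times the lowest. The log2 fold change was -0.34 (SE 0.18, 95% interval -0.72 to 0.05, adjusted p = 0.135 in limma), while the exact two-sided permutation test gave p = 0.00794, the smallest that 5 against 5 libraries allow. The interval leaves room for a small fall in hypHSCs and none for one of 2-fold. Under the same total, the interval reached -1.11 and *Tbp* no longer counted as held. Only 3.14% of the genes tested had a smaller SD of log2 values over the 10 libraries.

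Of 16 genes of TFIID and its relatives 7 were held within 2-fold, beside 17.4% of all genes tested. Called were 2 of the 16, beside 39.5% of all genes tested. *Taf6* and *Taf10* were called lower, at log2 -2.01 (SE 0.68) and -1.59 (SE 0.37). *Taf10* had 3648 ± 1870 normalized counts in the hypHSC group and 9521 ± 572 in the other (SD, n = 5 each).

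*Polr2a* (chr11:69624823-69649463), which encodes the largest subunit of RNA polymerase II, was faint and varied widely in both groups. It stood at 17.5, 108, 89.8, 22.0 and 33.3 normalized counts in hypHSC 1 to 5 and at 94.1, 80.1, 21.3, 49.6 and 18.7 in qHSC 1 to 5. Both groups covered the same range, about 6-fold in hypHSCs (6.15) and 5.03-fold in qHSCs, on 13 to 108 reads. The log2 fold change was -0.05 with a 95% interval of -1.53 to 1.43 (adjusted p = 0.957 in limma), which allows a change of 2-fold in either direction. Its SD of log2 values in qHSCs, 1.04, was larger than that of 86.7% of the genes tested.

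Other subunits of polymerase II had higher counts. *Polr2b*, the second largest subunit, stood at 1697 ± 354 normalized counts in hypHSCs against 3326 ± 364 in qHSCs (SD, n = 5 each) and was lower by log2 0.99, close to the limit of 2-fold (-0.99, SE 0.18, adjusted p = 0.000778 in limma). *Polr2g* and *Polr2k* were called higher, at log2 1.63 (SE 0.28) and 1.04 (SE 0.25). No subunit was called lower, and 2 of the 12 were called at all, beside 39.5% of all genes tested. Held within 2-fold were 4 of the 12, beside 17.4% of all genes tested.

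*Eef1a1* (chr9:78385729-78389006), which encodes the elongation factor that brings aminoacyl-tRNA to the ribosome, was among the steadiest of the abundant genes. Its levels were 127124, 99006, 78232, 97330 and 118017 normalized counts in hypHSC 1 to 5 and 97057, 90592, 76745, 76069 and 69813 in qHSC 1 to 5. The groups overlapped, and the highest library was 1.82 times the lowest. The log2 fold change was 0.33 (SE 0.21, 95% interval -0.14 to 0.80, adjusted p = 0.222 in limma), and 4.6% of the genes tested had a smaller SD. *Tbp* and *Eef1a1* were the 2 of 9 genes whose highest library was at most 2 times the lowest, beside 6.8% of all genes tested. With the GC trend removed, the upper bound of *Eef1a1* rose to 1.09.

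*Eef2* (chr10:81012465-81018341), the factor that moves the ribosome along the mRNA, had one mean but not one level. It stood at 35138, 29437, 22979, 16001 and 8411 normalized counts in hypHSC 1 to 5 and at 21968, 23112, 19415, 16562 and 16369 in qHSC 1 to 5. hypHSC 1 and 2 lay above and hypHSC 4 and 5 below all qHSC libraries, so the group means were nearly equal while the hypHSC libraries differed 4.18-fold. The log2 fold change was 0.05 (SE 0.34, 95% interval -0.70 to 0.81, adjusted p = 0.912 in limma). Under the same total, the interval reached -1.15 and *Eef2* was not held. *Eef2* has exons of 56.7% GC, and the GC trend fitted across genes in hypHSC 5 stood at -1.18 on the log2 scale for that content. With the trends removed, the hypHSC libraries differed 1.45-fold and the log2 fold change was 0.44 (SE 0.17, adjusted p = 0.0501 in limma). Removing the trends did not steady every gene: the spread of *Ywhaz* over the 10 libraries went from 2.11- to 4.50-fold and that of *Actg1* from 3.51- to 9.05-fold.

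Of 7 translation elongation factors tested 4 were held within 2-fold, beside 17.4% of all genes tested, *Eef1g* among them (log2 0.23, SE 0.17). Called was 1 of the 7, beside 39.5% of all genes tested. *Eef1b2*, the exchange factor of *Eef1a1*, stood at 10454 ± 3416 normalized counts in hypHSCs against 5300 ± 432 in qHSCs (SD, n = 5 each) and rose by log2 0.92 (SE 0.22, adjusted p = 0.00491 in limma), under the limit of 2-fold. *Eef1e1*, a component of the multi-tRNA-synthetase complex, was called higher (log2 1.53, SE 0.25). *Eef1a2*, the muscle and neuron form, was at 5.18 to 11.6 normalized counts in hypHSCs and had 0 reads in every qHSC library, where 3 reads, the limit that a count of 0 allows, would be 2.25 to 2.72 normalized counts. Such limits cover counting error only.

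*Ywhaz* (chr15:36770501-36797173), which encodes 14-3-3ζ, an adaptor that binds phosphorylated proteins, was held within 2-fold. Its levels were 8666, 9520, 8541, 14630 and 17994 normalized counts in hypHSC 1 to 5 and 12165, 13154, 11610, 13078 and 15716 in qHSC 1 to 5. hypHSC 1, 2 and 3 were below all qHSC libraries and hypHSC 5 above them, the opposite order to *Actb* and *Eef2*. The log2 fold change was -0.21 (SE 0.23, 95% interval -0.71 to 0.29, adjusted p = 0.477 in limma). Of the other 14-3-3 genes, *Ywhae* was held (log2 0.24, SE 0.28), and *Ywhag* (1.02, SE 0.31), *Ywhah* (2.17, SE 0.35) and *Sfn* (4.21, SE 0.59) were called higher. Among all 7 14-3-3 genes 3 were called, beside 39.5% of all genes tested, and 3 were held, beside 17.4%.

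Compared per length of exon, as FPKM (reads divided by exon length and by library depth) recomputed from the recovered reads over all annotated exons, the order of the 9 genes was nearly the same in both groups. *Actb* had the highest mean, 1427 ± 1079 FPKM in hypHSCs and 1080 ± 190 in qHSCs (SD, n = 5 each), and in hypHSC 5, at 130 FPKM, it was below *Eef1a1*, *Actg1* and *Ppia*. *Eef1a1* followed in qHSCs with 506 ± 79.5 and *Actg1* with 275 ± 60.9, in that order in 5 of 5 libraries. In hypHSCs *Actg1* (525 ± 78.2) and *Eef1a1* (496 ± 75.4) did not differ beyond their spread, as *Actg1* was above in 2 of 5 libraries. *Ppia*, *Eef2*, *Ywhaz* and *Hprt* came next in both groups, in this order in each library except hypHSC 5, where *Ywhaz* was above *Eef2*. *Tbp* (0.981 ± 0.195 and 1.56 ± 0.136 FPKM) and *Polr2a* (0.180 ± 0.149 and 0.216 ± 0.140) were lowest, so the steadiest gene was also one of the faintest. All annotated exons of *Eef1a1*, *Ppia* and *Actg1* covered 4968, 3508 and 3007 bases, against 1794, 1170 and 2201 in their canonical transcripts. The order among *Eef1a1*, *Actg1* and *Ppia* therefore depends on the length chosen, and FPKM over canonical transcripts was not computed.

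A ratio of 2 genes within a library does not depend on how libraries are scaled. Of the 36 ratios among the 9 genes, 12 differed between the groups at an adjusted p of at most 0.05 (exact two-sided permutation test, adjusted over the 36). The groups did not overlap in 10 of the 36, all among these 12. The levels of single genes did not overlap for 39.5% of all genes tested, and no such share was computed for pairs of other genes. All 12 ratios set *Hprt*, *Actg1* or *Ppia* against *Tbp*, *Ywhaz*, *Eef1a1* or *Eef2*, except the ratio of *Tbp* to *Eef1a1*, which was lower in hypHSCs by log2 0.67 (-0.67, exact permutation p = 0.00794, adjusted 0.0286). The largest difference was that of *Actg1* to *Tbp*, with a ratio of at least 91.3 in hypHSCs and at most 47.4 in qHSCs (difference in log2 1.64, exact permutation p = 0.00794, adjusted 0.0286). For *Hprt* to *Tbp*, the ratio was 7.03 to 13.9 in hypHSCs and 2.87 to 4.13 in qHSCs (difference 1.59, the same p). The ratio of *Ppia* to *Eef1a1* was the tightest within hypHSCs, at 0.453, 0.465, 0.433, 0.465 and 0.430 in hypHSC 1 to 5, and all 5 were above the qHSC ratios of 0.253 to 0.341 (difference 0.56, the same p).

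**Figure D3:**
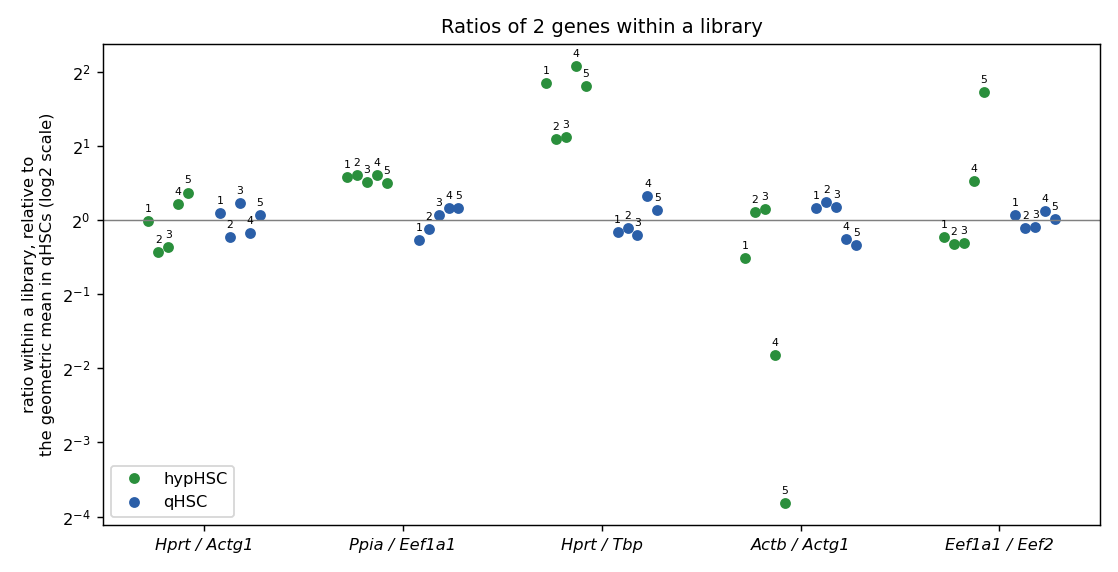
Ratio of 2 genes within a library (vertical axis, log2 scale), divided by its geometric mean in qHSCs, for 5 pairs of genes. Each point is a library with its number. *Hprt* to *Actg1* overlapped between the groups, *Ppia* to *Eef1a1* and *Hprt* to *Tbp* were separated by group, and *Actb* to *Actg1* and *Eef1a1* to *Eef2* were set apart by hypHSC 4 and 5.

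The M value, the measure of the geNorm algorithm that the study used to choose its qPCR references, is the mean SD of the log2 ratios of a gene to the others, and a smaller M means a steadier gene. Here it is a description without a test. Over the 10 libraries M was lowest for *Eef1a1* (0.67), *Ppia* (0.69) and *Tbp* (0.78) and highest for *Polr2a* (1.19) and *Actb* (1.23). In qHSCs alone *Actb* had an M of 0.35, close to the 0.30 of *Ppia*, and in hypHSCs alone it had 1.72. Without hypHSC 5, the M of *Actb* over the libraries left was 0.78 and that of *Eef2* went from 0.81 to 0.58.

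Taking away the gene with the largest M, one after the other, removed *Actb*, *Polr2a*, *Eef2*, *Tbp*, *Ywhaz*, *Eef1a1* and *Ppia* in this order and left *Hprt* and *Actg1*, with an M of 0.27. The last pair by this procedure was thus the pair of genes that were called. Their ratio was 0.0726 to 0.127 in hypHSCs and 0.0837 to 0.115 in qHSCs (difference in log2 -0.04, exact permutation p = 0.817, adjusted 0.909), while both levels differed more than 2-fold between the groups. A measure built on ratios does not register a change that 2 genes share.

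**Figure D4:**
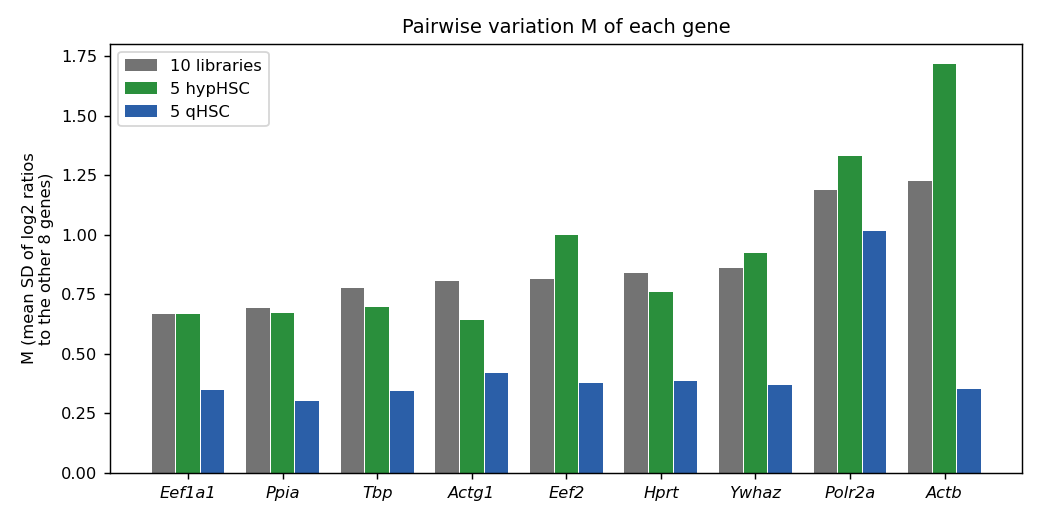
Pairwise variation M of each gene against the other 8 (vertical axis, log2 units), over all 10 libraries and within each group of 5. *Polr2a* was high in both groups, and *Actb* was high in hypHSCs (1.72) and not in qHSCs (0.35).

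The number and the direction of the genes called depended on the reference. With the deposited scaling 5779 genes were called, 2602 higher and 3177 lower in hypHSCs. Each of the 9 genes was then set equal in all libraries as the only reference, as an alternative added after the data had been seen. *Actg1* gave 9807 calls, of which 1239 were higher, and *Hprt* gave 9431, of which 1232 were higher. *Tbp* gave 5809, of which 3379 were higher, and *Ywhaz* 5215, of which 2915 were higher. *Actb* and *Polr2a* gave the fewest, 3544 and 3282, with a median SE of the log2 fold change over all genes tested of 0.81 and 0.88, against 0.41 with the deposited scaling. The median log2 fold change of all genes tested went from -1.48 with *Actg1* to 0.14 with *Tbp*. Setting a gene equal subtracts its own change from every gene. These medians, and the direction in which calls shifted, thus restate the fold changes of the references given above.

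**Figure D5:**
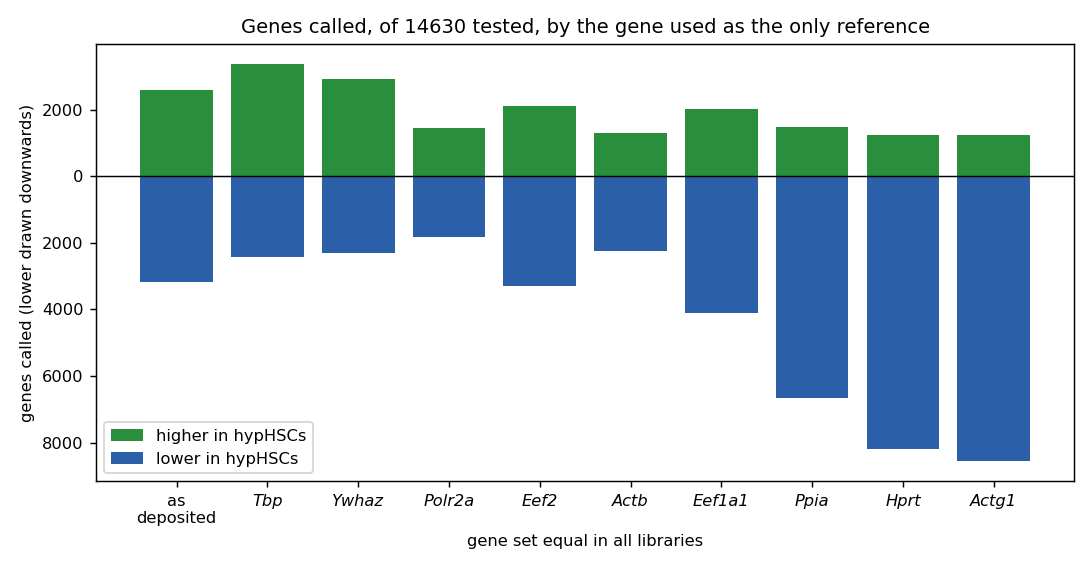
Number of genes called higher (upwards) and lower (downwards) in hypHSCs, of 14630 tested, with the deposited scaling and with each of the 9 genes set equal in all libraries. *Hprt*, *Actg1* and *Ppia* as references shifted the calls to lower in hypHSCs, and *Tbp* and *Ywhaz* shifted them towards higher. The direction of each shift follows from the fold change of the reference itself.

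The qPCR of the study used 18S, HPRT1, an actin and PGK1 as references. *Pgk1*, a glycolytic kinase, stood at 5231, 3830, 3171, 5613 and 5354 normalized counts in hypHSC 1 to 5 and at 1607, 1421, 1727, 1852 and 1756 in qHSC 1 to 5, without overlap of the groups, and was called higher (log2 1.44, SE 0.19, adjusted p = 8.9e-05 in limma). 92.4% of its stretches of 59 bases occurred elsewhere in the genome. The scaling below left out 18S, and these libraries were primed on poly(A) tails. The qPCR used random primers on separately collected cells, so its normalization was not tested here. Where the geometric mean of *Hprt*, *Pgk1* and *Actb* (taken for the actin) was set equal in all libraries, the median of all genes tested moved to -1.12 and 8462 genes were called, of which 6990 were lower. *Tbp* and *Ywhaz* were then called lower, at -1.28 and -1.15, and the share of calls that were higher was 17.4%, against 45.0% with the deposited scaling. The shift to lower follows from the fold changes of the genes scaled on and is no separate result.

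Other genes used as references elsewhere were judged in the same way. Of 40 such genes 16 were called, 12 higher and 4 lower, beside 39.5% of all genes tested called and 17.8% called higher, so the share called was near the background. Held within 2-fold were 13, beside 17.4% of all genes tested. Steadiest were *Atp5f1b*, a subunit of the mitochondrial ATP synthase (listed as *Atp5b*, log2 0.06, SE 0.15), *Vcp*, a protein segregase (0.31, SE 0.15), and *Rab7*, a late endosomal GTPase (0.26, SE 0.15). The highest library of *Atp5f1b* was 1.37 times the lowest, at 16194 ± 1840 normalized counts in hypHSCs against 15522 ± 1468 in qHSCs (SD, n = 5 each). The largest changes were those of *Alas1*, the first enzyme of heme synthesis (log2 3.01, SE 0.36), *Gapdh* of glycolysis (1.88, SE 0.19) and the transferrin receptor *Tfrc* (1.73, SE 0.32). *Gapdh* stood at 3544, 3082, 2467, 2210 and 1957 normalized counts in hypHSC 1 to 5 and at 800, 739, 698, 724 and 573 in qHSC 1 to 5, without overlap.

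Over all 6343 genes whose mean reached 500 normalized counts, 391 had a smaller SD of log2 values than *Tbp*. The 5 smallest were those of *Cpsf3*, an endonuclease of mRNA 3′ processing, *Thoc2* of mRNA export, *Uqcrc2* of mitochondrial complex III, the noncoding RNA *Dubr*, and *Csnk2a1*, a catalytic subunit of casein kinase 2. *Cpsf3* ranged from 3262 to 3922 normalized counts over the 10 libraries, 1.20-fold. These genes were chosen on these libraries, so their steadiness is a description.

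The gene whose level ran most nearly parallel to each of the 9, by the SD of the log2 ratio over the 10 libraries, was *Ubl5* for *Ppia* (SD 0.076), *Rnf20* for *Eef1a1* (0.098), *Atp6v1f* for *Hprt* (0.12), *Rer1* for *Ywhaz* (0.12), *Ints1* for *Eef2* (0.12), *Brd8* for *Tbp* (0.13), *Gng2* for *Actg1* (0.15), *Camta2* for *Actb* (0.22) and *Cherp* for *Polr2a* (0.57). These genes were selected for this likeness on the same libraries.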

How the data were processed

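RNA of sorted cells was reverse-transcribed from its poly(A) tail, amplified and sequenced in pairs of 59 bases without strand. According to the submitters' processing notes and the methods, the authors mapped reads to mm39 with STAR (2.7.5a), counted them per gene with featureCounts (Subread 1.5.0) and scaled the libraries by DESeq2 size factors. The deposited signal is this normalized count. Each column was turned back into whole reads, within 0.01 read for 100% of values, to give depth and FPKM, with exon lengths from GENCODE.

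The members and lists were chosen with earlier results of these data known. Genes were named by rule: the 9 genes, *Pgk1*, *Gapdh*, the steadiest 3 and most changed 3 other references, called relatives and close relatives, the steadiest 5 genes, and the nearest gene to each of the 9. *Csf1r*, *C1qa*, *Cd68*, *Lyz2* and *Spp1* were named after their values were seen.

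Genes that reached 10 normalized counts in 5 or more libraries were tested with limma 3.58.1 (R 4.3.3, trend), on log2(normalized count + 1), 5 against 5 libraries, with Benjamini-Hochberg adjustment. The files hold normalized values, so limma replaced the DESeq2 of the study. DESeq2 1.42.0 and edgeR 4.0.16 were run on the recovered reads as alternatives, beside other pseudocounts, filters and scalings, each library left out and the replicate block. The fit was tested on simulated data with 200 changed genes. The main fit did not pair the groups by replicate number. Deviations of libraries with the same number correlated at 0.0082 to 0.13, which cannot show whether they were processed together. The 37089 entries without a symbol were not used.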

Additional observations from a re-analysis of the deposited data

How the results depend on the processing

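Other pseudocounts and filters, TMM factors, DESeq2 and edgeR left 2 of the 9 genes called, and 4 held within 2-fold where an interval was available (edgeR gave none). With the replicate number as a replicate block the counts were also 2 and 4, and only hypHSC 5 correlated best with its own number. With the same total 0 were called, and with the geometric mean of *Hprt*, *Pgk1* and *Actb* set equal 2 of the 7 genes not used in it were held. These 2 were *Actg1* and *Ppia*, and none of *Tbp*, *Ywhaz*, *Eef1a1* and *Eef2* was held under that scaling. Without each library in turn 2 to 3 were called and 4 held, 14 to 16 of the other references were called and 12 to 16 held. Of the 36 ratios, 7 to 12 differed when 1 library was left out, 7 of them without hypHSC 4, and 0 with the 12-week hypHSCs alone, where 3 libraries against 5 leave fewer arrangements. Some log2 fold changes changed sign. With the same total *Actb* was at -0.24, *Eef1a1* at -0.024 and *Eef2* at -0.30. With *Hprt*, *Pgk1* and *Actb* set equal, *Ppia* was at -0.047, *Eef1a1* at -0.61 and *Eef2* at -0.89. With the 12-week hypHSCs alone *Actb* was at -0.64, *Eef2* at -0.41 and *Ywhaz* at 0.0031, and *Eef2* was not held. With the GC trend removed *Ywhaz* was at 0.082 and *Polr2a* at 0.22. *Polr2a* was at 0.057 with the same upper quartile, 0.0067 with TMM factors, and 0.10 with DESeq2 and 0.098 with edgeR. Without 1 library, *Actb* ranged from -0.24 to 0.77, *Eef2* from -0.15 to 0.36 and *Polr2a* from -0.39 to 0.25. The causes were not tested. *Polr2a* had 13 to 108 reads per library, and the other 8 genes had at least 445.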
